A study of Mus musculus with 6 samples.

Results

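The expression profile below is that of Hepa1-6, a mouse hepatoma line used as a model of liver cells, in its control state. It rests on 3 libraries, chosen by their label, of the 6 in the series. The cells of these 3 libraries had received an siRNA against Renilla luciferase, an enzyme of a sea pansy with no counterpart in the mouse, carried by Lipofectamine RNAiMAX for 3 days. They had grown in high-glucose DMEM with fetal bovine serum and antibiotics, and their total RNA, treated with DNase, was made into strand-marked sequencing libraries. The other 3 libraries, of cells given siRNA against Crebl2, entered no value reported here. There was thus 1 group of transfected cells of 1 line, with no untreated cells and no liver tissue measured beside it, so levels are compared between genes and no test between groups was made. Nothing in the labels tells whether each library had a culture of its own, so the spread between them may be technical.

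Hepatocytes make most plasma proteins, detoxify ammonia in the urea cycle, release glucose by gluconeogenesis and glycogen breakdown, and handle bile acids, drugs and lipoproteins, under a set of liver transcription factors that includes the HNF4, FOXA and C/EBP proteins. Fetal hepatocytes also make alpha-fetoprotein and other oncofetal proteins, which many hepatomas make again. Bile duct cells arise from the same progenitors and are known by the keratins Krt7 and Krt19 and by the transcription factor Sox9.

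Total counts were 29158489, 28477181 and 27385328 in control libraries 1, 2 and 3. A gene's counts were divided by the total to give counts per 1000000 (CPM), and mitochondrially encoded genes held 2.31%, 2.48% and 2.52% of counts. The 9603 annotated transcripts with no base of their own held 0.0236% of counts, so levels of different genes are compared as CPM of the transcript with most counts per kilobase of its unique bases, called the level below. A gene with under 200 unique bases in every coding transcript is called unreadable. A gene is called expressed at 1 CPM or more in each of the 3 libraries, which is about 27.4 to 29.2 counts. It is called near absent at 3 counts or fewer in every library, and low in between. Near absent and low are used only for resolved genes, those in which every coding transcript has 200 or more unique bases and at most 20% of 50-base words recur in another gene. Other readable genes under 1 CPM are called unresolved, with nothing said of their absence. A count of 0 allows up to 3 counts, or 0.103 to 0.110 CPM, a limit that covers counting error only. Levels of expressed genes that are not resolved are called lower bounds, as reads on shared bases or other transcripts may be missing. This holds only if counts come from the unique bases alone. The strand and counting settings that would decide it are not given.

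The libraries resembled one another, with Pearson's r of log2 CPM across genes between 0.998 and 0.999, which is no replicate test since genes are not independent. They differed by more than counting error, with a chi-square per gene of 8.11 between libraries 1 and 2, 5.85 between 1 and 3 and 2.81 between 2 and 3. The median coefficient of variation over the 3 libraries was 4.44% for the expressed genes, against 2.86% for counting error alone. Each level below is a mean ± SD over these 3 libraries (n = 3).

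Of 18664 readable protein-coding genes, 8220 were expressed, which is 44.0%. Of 11045 resolved ones, 4084 were near absent, which is 37.0%. The median level of the expressed genes was 19.4, with 6.32 at the 25th percentile, 49.2 at the 75th, 107 at the 90th and 516 at the 99th. The 20 genes of highest level held 9 of the translation machinery, namely Rack1, Eef2, Rpl8, Eef1a1, Rpl4, Rplp0, Rps26, Pabpc1 and Rplp1. Another 4 were mitochondrial mRNAs of the respiratory chain, mt-Nd1, mt-Cytb, mt-Co1 and mt-Nd2. The remaining 7 were Fth1, Lgals1, Hsp90ab1, Clu, Atp5b, B2m and Ctsz, which encode ferritin heavy chain, galectin-1, an HSP90 chaperone, the secreted chaperone clusterin, the beta subunit of ATP synthase, the light chain of MHC class I and the lysosomal protease cathepsin Z. Clu, whose product the liver also secretes, was at 2210.1, 2623 and 2571 in the 3 libraries. No albumin, fibrinogen or apolipoprotein A or B gene was among these 20. Unreadable genes, Apoa2 among them, could not be ranked, and genes that are not resolved were ranked by lower bounds.

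The label was checked against 5 hepatocyte markers. Alb, which encodes albumin, was expressed at 268, 276 and 299 in libraries 1, 2 and 3, a mean level of 281 ± 15.9, higher than in 97.6% of expressed genes. The genes of 3 other major hepatocyte products were far lower. Ttr, the thyroid hormone and retinol carrier transthyretin, had 11, 7 and 5 counts. Apoa1, the main protein of high-density lipoprotein, had 12, 26 and 16, and Apob, the structural protein of low-density and very-low-density lipoprotein, had 3, 1 and 2 over 13934 unique bases. The gene of the transcription factor Hnf4a was unreadable, with no counts. Of these 5 markers Alb was thus expressed, Ttr and Apoa1 were low, Apob was near absent and Hnf4a could not be read. In bulk RNA, fewer cells with a transcript and less of it per cell cannot be told apart, here and for every level below.

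Over all hepatocyte lists, 93 of 252 readable members were expressed, or 36.9% against 44.0% of all readable protein-coding genes. Among resolved members, 58 of 169 were near absent, or 34.3% against 37.0% of all resolved genes, so near absence was about as frequent among hepatocyte genes as among genes at large. The lists of fetal, bile duct, epithelial, mesenchymal and pluripotency genes together had 32 of 64 expressed, or 50%. Growth lists had 106 of 136, or 77.9%, and metabolic lists 130 of 181, or 71.8%. The lists of other cell types had 6 of 48, or 12.5%. These are descriptions of lists chosen from textbook knowledge with earlier results of these data known, and no test was made. The share of 44.0% is also the one to set beside each list below. Near it, at 40% to 50%, were the lists of liver transcription factors, complement, apolipoproteins and urea cycle. So were those of amino acid breakdown, bile acid synthesis, membrane transporters, fetal liver genes and mesothelial markers.

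**Figure D1:**
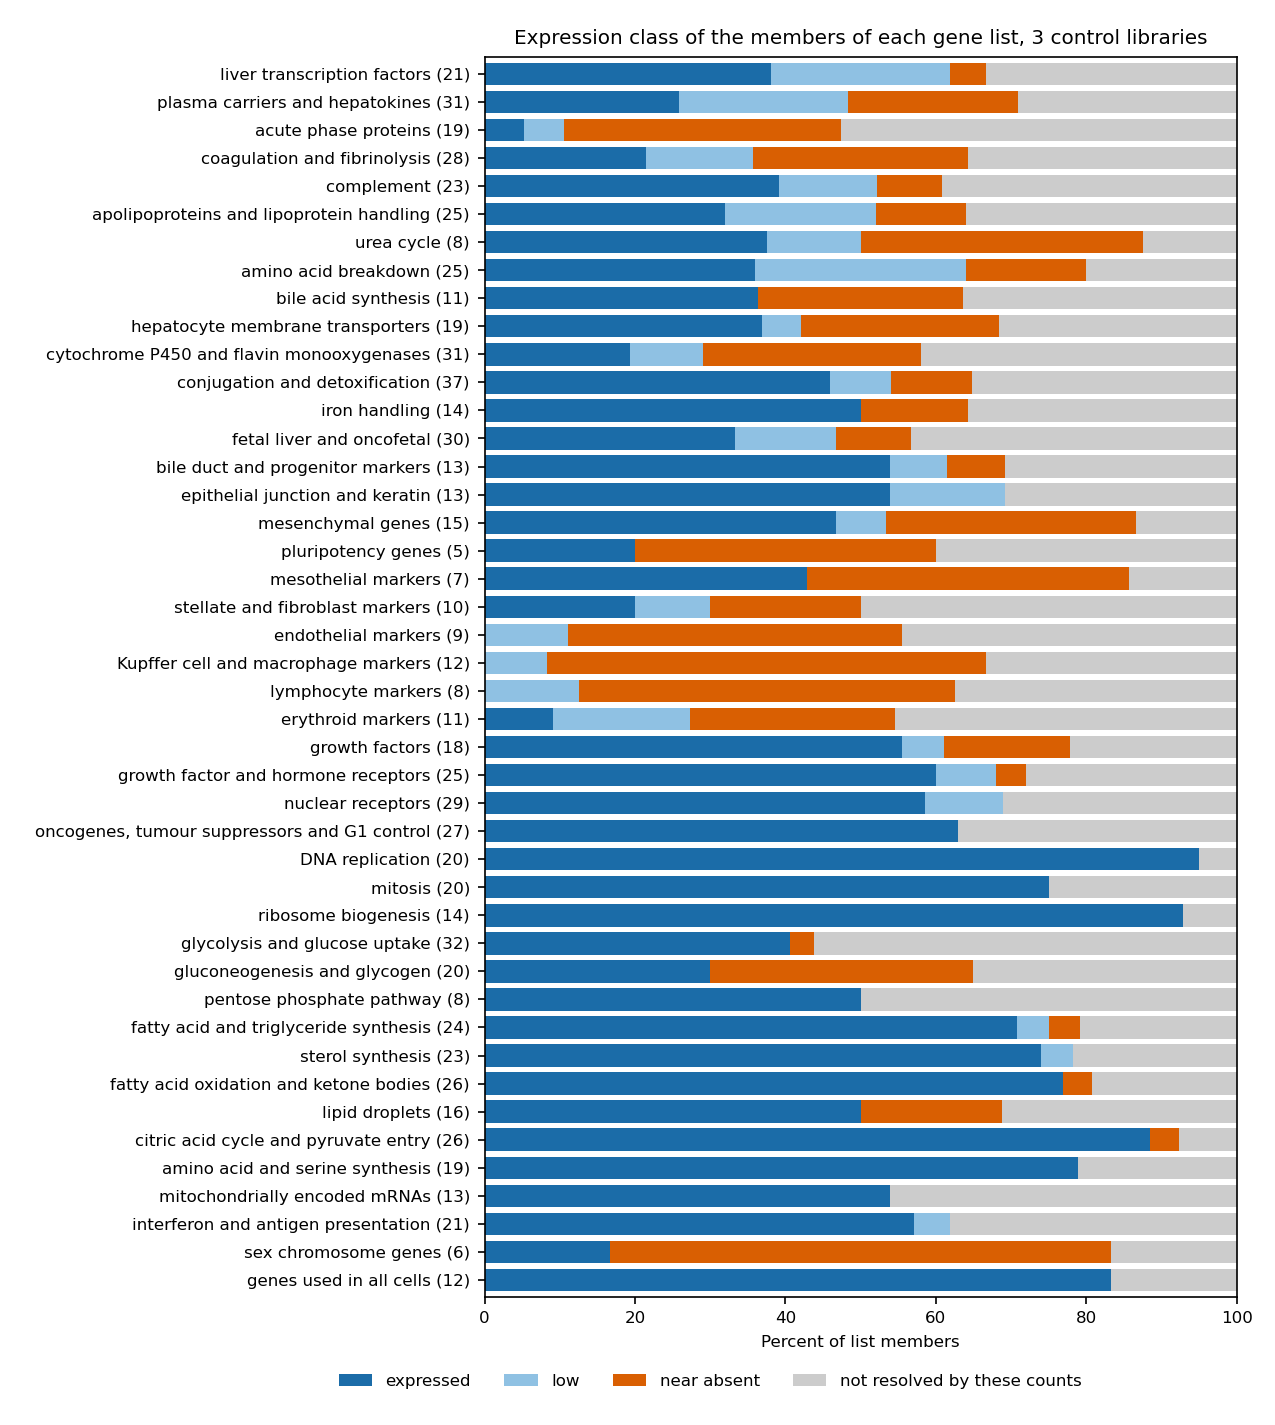
Share of the members of each gene list, in percent, that were expressed (1 CPM or more in each library), low, near absent (3 counts or fewer in each library) or not resolved by these counts, with the number of members in parentheses. DNA replication, ribosome biogenesis and citric acid cycle lists are almost wholly expressed where they can be read. The acute phase list has 1 expressed member of 17 that can be read, with 8 of them unresolved.

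Transcription factors of the hepatocyte network were present in part. Of 16 readable members, 8 were expressed, or 50%, near the 44.0% of all readable genes. Another 5 were low and 1 was near absent. Cebpb, a C/EBP factor of the acute phase and of regeneration, was highest at 54.4, 57.9 and 55.6. Zhx2, known as a postnatal repressor of the alpha-fetoprotein gene, was at 34.5, 36.6 and 35.6. Foxa3 and Foxa1, pioneer factors that open liver chromatin, were at 35.4, 33.2 and 35.1 and at 11, 9.84 and 10.9. The other expressed members were Nr5a2, Hhex, Prox1 and Onecut1, at mean levels between 1.5 and 3.04, higher than 6.86% to 14% of expressed genes. Hnf4g, Nr0b2, Creb3l3 and Gata6 were among the low members, with 19, 78, 18 and 9 counts over the 3 libraries. Onecut2 was near absent with no counts. Cebpa and Gata4 were unresolved, and Hnf4a, Foxa2, the bile acid receptor Nr1h4 and Tbx3 were unreadable. The level of Nr5a2 is a lower bound, and for the central factors Hnf4a, Foxa2 and Cebpa these counts give no level.

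Plasma carriers and hepatokines had 8 of 28 readable members expressed, 7 low and 7 near absent. Those expressed reached high levels, with a median of 112 against 19.4 for all expressed genes. Trf, the iron carrier transferrin, was at 414, 488 and 495, on 376 unique bases of its main transcript. Cp, the copper protein ceruloplasmin, was at 196, 225 and 228, and Itih2, a hyaluronan-binding inhibitor heavy chain, at 150.2, 154 and 148. All 4 leading carriers, Alb included, were above the 90th percentile, and Trf and Cp were lower in library 1 than in the other 2. Rbp4, the retinol carrier, had a mean of 72.7 ± 4.59. The levels of Trf, Cp and Rbp4 are lower bounds. Near absent were Vtn, A1bg, Hrg and Igfbp1, which encode vitronectin, a plasma glycoprotein, histidine-rich glycoprotein and an IGF-binding protein, with 2, 0, 0 and 0 counts in all. The low members were Ttr, Gc, Afm, Ahsg, Apoh, Hpx and Hp. Among them the hemoglobin and heme scavengers Hp and Hpx had the most counts, 53, 34 and 25 and 20, 23 and 30.

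**Figure D2:**
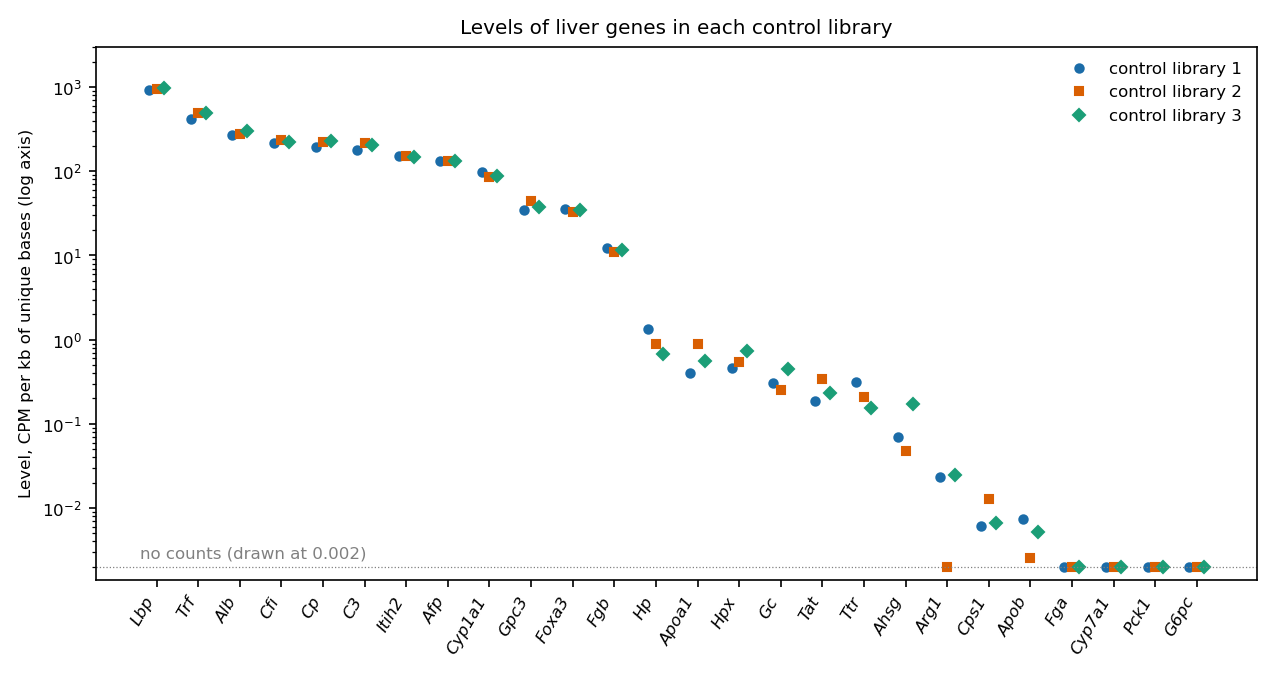
Level in CPM per kilobase of unique bases (log axis) of 26 liver genes, picked after their values were seen, in control libraries 1, 2 and 3, ordered by mean level. Genes with no counts are drawn at 0.002 and Trf and Cp are lower bounds; Lbp has the highest level of the genes drawn, and the gap between Fgb and Hp comes from the choice of genes, since Abcc4, Asl and other hepatocyte genes lie in it.

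The albumin family lies in a cluster on chromosome 5, and its members differed widely in level. Alb (GRCm38 chr5:90460900-90476600) was 2.12 times as high as Afp (chr5:90490700-90508900), which encodes alpha-fetoprotein, the fetal counterpart of albumin. Afp was at 131, 132 and 134, a mean of 132 ± 1.33, with little spread between the libraries. The log2 ratio of Afp to Alb was -1.08 ± 0.07, below 0 in each of the 3 libraries. Afm, the vitamin E carrier afamin and the next gene of the cluster (chr5:90518900-90553500), had 2, 3 and 4 counts. Gc, the vitamin D carrier (chr5:89417500-89457900), had 16, 13 and 22 counts and a level of 0.335 ± 0.0997. The promoters of these 4 genes are shown because all of them hold an exact match to GTTAATNAT, a motif known from liver promoters (N for any base, searched on both strands), although their genes span the range from highly expressed to low. That of Fga, the fibrinogen alpha chain, which had no counts, is shown as a near absent gene with the same motif. Each sequence runs 5′ to 3′ on the gene's strand from 250 bases before the annotated start to 50 after it, from RefSeq (GRCm38.p6). Capitals mark the motif, which begins 32, 105, 138, 52 and 46 bases before the start in the order given. The windows are chr5:90460620-90460919, plus strand for Alb, chr5:90490464-90490763, plus strand for Afp, chr5:90518699-90518998, plus strand for Afm, chr5:89457849-89458148, minus strand for Gc and chr3:83025903-83026202, plus strand for Fga.
Alb: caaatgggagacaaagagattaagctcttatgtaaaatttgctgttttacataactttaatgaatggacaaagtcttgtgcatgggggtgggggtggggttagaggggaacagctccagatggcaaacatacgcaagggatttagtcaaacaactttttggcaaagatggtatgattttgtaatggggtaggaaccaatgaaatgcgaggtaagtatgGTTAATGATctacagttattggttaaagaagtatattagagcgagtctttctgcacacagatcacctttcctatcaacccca
Afp: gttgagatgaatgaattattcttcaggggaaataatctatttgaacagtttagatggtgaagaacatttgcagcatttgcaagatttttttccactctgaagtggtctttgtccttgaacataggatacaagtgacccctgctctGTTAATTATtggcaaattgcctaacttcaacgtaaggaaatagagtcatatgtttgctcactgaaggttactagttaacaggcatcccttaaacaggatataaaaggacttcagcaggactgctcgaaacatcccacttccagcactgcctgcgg
Afm: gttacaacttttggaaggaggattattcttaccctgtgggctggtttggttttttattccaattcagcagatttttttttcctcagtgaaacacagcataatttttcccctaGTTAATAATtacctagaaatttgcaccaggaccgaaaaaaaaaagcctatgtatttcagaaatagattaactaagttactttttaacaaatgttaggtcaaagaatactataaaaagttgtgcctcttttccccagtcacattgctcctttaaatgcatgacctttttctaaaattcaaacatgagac
Gc: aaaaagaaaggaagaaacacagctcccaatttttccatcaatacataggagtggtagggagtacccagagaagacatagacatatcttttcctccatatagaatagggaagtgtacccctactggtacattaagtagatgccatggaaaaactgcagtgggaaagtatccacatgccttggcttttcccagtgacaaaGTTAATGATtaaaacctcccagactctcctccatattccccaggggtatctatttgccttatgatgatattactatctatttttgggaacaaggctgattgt
Fga: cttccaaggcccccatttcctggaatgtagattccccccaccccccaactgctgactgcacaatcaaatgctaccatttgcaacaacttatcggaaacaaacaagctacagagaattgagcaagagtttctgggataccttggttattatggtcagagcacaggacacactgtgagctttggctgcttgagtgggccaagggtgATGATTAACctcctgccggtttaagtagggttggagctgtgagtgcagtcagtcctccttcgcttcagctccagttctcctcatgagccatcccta

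Across the hepatocyte lists, 63 of 93 expressed members had a promoter in the RefSeq table, and 5 of them held the GTTAATNAT match, or 7.94%. It was held by 4 of 29 low members and by 5 of 46 near absent ones, or 10.9%. Over all 27025 genes with a promoter of that length, 254 held it, or 0.940%. The match was thus more frequent in the hepatocyte lists than among all promoters, and was found in expressed, low and near absent members alike. The 5 expressed ones were Alb, Cp, C4bp, Nr5a2 and Slco1b2, and the 4 low ones Gc, Afm, Hc and Prodh2. Of the other motifs searched on both strands, the TATA box TATAAA was in 16 of 63 expressed, 5 of 29 low and 16 of 46 near absent hepatocyte members, against 15.7% of all genes. It was in 0 of 27 expressed members of the DNA replication and mitosis lists. The E2F motif TTTCCCGC was in 3 of those 27, or 11.1%, against 1.24% of all genes. The HNF4 motif CAAAGTCCA was in 0 of 63 expressed, 1 of 29 low and 3 of 46 near absent hepatocyte members. Over all genes it was in 0.555%. The C/EBP motif TTGCNNCAA was in 2, 0 and 2 of these members, against 2.38% of all genes. The CRE motif TGACGTCA was in 0, 0 and 1 of them, against 2.03%. A match is a run of letters in this window and no measure of binding.

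Acute phase genes, which the liver induces in inflammation, were represented by 1 of 17 readable members. Lbp, which binds bacterial lipopolysaccharide, was at 935, 939 and 965, a mean of 946 ± 16.7 and higher than 99.5% of expressed genes. Among the secreted proteins of the hepatocyte lists it had the highest level read, above that of albumin in each library. No other member reached 1 CPM in each library. Saa1, Saa3, Saa4 and Apcs, which encode serum amyloid A and P proteins, were near absent with 0, 0, 2 and 0 counts, as were 3 further members. Lcn2, an iron-sequestering lipocalin, was low with 12, 19 and 11 counts. The Serpina1 and Orm genes are families of near-identical copies and were unresolved.

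Coagulation and fibrinolysis had 6 of 25 readable members expressed and 8 near absent. Pros1, the cofactor protein S, was at 36.3, 33 and 32.9, and Ggcx, the vitamin K-dependent carboxylase, at 31.3, 30.8 and 32.9. F3, tissue factor, was at 14.4, 14.8 and 15.6. The 3 fibrinogen chains, encoded side by side on chromosome 3, did not share a level. Fgb, the beta chain (chr3:83040100-83049900), was expressed at 12.3, 11.1 and 11.5, a mean of 11.6 ± 0.6, higher than 36.9% of expressed genes. Fga (chr3:83026100-83033600) and Fgg (chr3:83007700-83015000), the alpha and gamma chains, had no counts in any of the 3 libraries over 927 and 398 unique bases. A fibrinogen molecule contains all 3 chains. F7 and F9, vitamin K-dependent clotting factors, were near absent with no counts.

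Of 18 readable complement genes 9 were expressed, or 50%, near the 44.0% of all readable genes, and 2 were near absent. Cfi, a protease that cleaves complement component fragments, was at 219, 233 and 223. C3, the central component, was at 178, 216 and 207, lowest in library 1. C1ra and C2, proteases of the classical pathway, had mean levels of 45.8 ± 2.67 and 39.4 ± 3.04, which are lower bounds. Mbl2, a lectin that starts the lectin pathway, and the regulator Cd55 were near absent with 5 and 1 counts. Cfi and C3 were higher than 96.6% and 96% of expressed genes.

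Among 20 readable genes of apolipoproteins and lipoprotein handling, 8 were expressed, 5 low and 3 near absent. Among the expressed ones, Lrp1, an endocytic receptor for lipoprotein remnants, was at 82.5, 66 and 68.6, highest in library 1. Abca1, the cholesterol exporter, had a mean of 29.6 ± 3.73. Of the apolipoproteins proper, Apoc4 was expressed at 24.1, 28.1 and 21.4, while Apoa4 and Apob were near absent with 0 and 6 counts and Apoa1 was low. Mttp, which loads lipid onto apolipoprotein B, was expressed at 1.23, higher than 5.38% of expressed genes. Apoe, Apoc3 and Apoa5 were unresolved and Apoa2, Apoc1 and Apoc2 unreadable.

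Of the urea cycle, 3 of 7 readable members were expressed and 3 near absent. Cps1 and Otc, the mitochondrial enzymes that open the cycle, were near absent with 1, 2 and 1 and 0, 0 and 0 counts, over 5555 and 1922 unique bases. Arg1, the arginase that releases urea, had 1, 0 and 1 counts. The middle of the pathway was present. Ass1, argininosuccinate synthase, was at 22, 25.8 and 21.7, a lower bound, Asl, argininosuccinate lyase, at 8.1, 9.93 and 7.86 on 237 unique bases, and the ornithine carrier Slc25a15 at 14.1, 13.5 and 13.9. Nags, which makes the activator of Cps1, was low with 42 counts.

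Amino acid breakdown had 9 of 22 readable members expressed, 7 low and 4 near absent. Within tyrosine degradation, Tat and Hpd, the enzymes of the first steps, had 51 and 0 counts and Hgd, the next, had 6. The last enzymes were expressed, Gstz1 at 44, 45.5 and 46.8 and Fah, fumarylacetoacetase, at 27.7, 33.1 and 29.3. Tyrosine degradation was thus low or near absent at its first 3 readable enzymes and expressed at its last 2. Aldh4a1, of proline breakdown, and Afmid, of tryptophan breakdown, had means of 31.9 ± 1.46 and 16.8 ± 1.04. Kmo, of the kynurenine pathway, and Agxt, which removes glyoxylate, were near absent with 0 and 1 counts.

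Bile acid synthesis showed a similar division. Cyp7a1, the rate-limiting enzyme of the classic pathway, Cyp8b1, which sets the cholic acid share, and Akr1d1, a reductase of the sterol ring, each had 0 counts. Cyp27a1, the mitochondrial sterol hydroxylase that opens the alternative pathway, was at 50.3, 55.1 and 52.7. Cyp7b1, the next enzyme of that pathway, was at 14.2, 14.1 and 15.2, Amacr, a peroxisomal racemase, at 23.1, 21.1 and 23.2, and Cyp39a1, an oxysterol hydroxylase, at 6.75, 6.77 and 6.35. So 4 of 10 readable members were expressed, among them the first enzymes of the alternative pathway, and 3 near absent.

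Among hepatocyte membrane transporters, 7 of 17 readable members were expressed and 5 near absent. Abcc2, the canalicular exporter of bilirubin conjugates, was at 139, 119.5 and 118, highest in library 1. The next were the exporter Abcc4 at 8.09, the organic anion importer Slco1b2 at 6.75 and the drug exporter Abcb1a at 3.62. The levels of Abcc2, Abcc4 and Slco1b2 are lower bounds. Slc10a1, the sodium-dependent bile acid importer of the sinusoidal membrane, was near absent with 2, 2 and 2 counts. The bile salt exporter gene Abcb11 was unreadable.

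The 2 lists of drug metabolism differed in their share of expressed genes, with no test made. Of 27 readable cytochrome P450 and flavin monooxygenase genes, 6 were expressed, or 22.2% against 44.0% of all readable genes. Another 9 were near absent. Cyp1a1, a target of the aryl hydrocarbon receptor, was at 96.9, 84.9 and 87.2. Its neighbour on chromosome 9 and liver-typical relative Cyp1a2 was low with 6, 5 and 7 counts, a level of 0.109 ± 0.0208. The receptor itself, Ahr, was at 127, 121 and 123, the highest level read among the nuclear receptors and other ligand-activated factors listed with them. Cyp4v3, Cyp3a13 and Cyp2d22 followed at 15.8, 5.02 and 3.63. Cyp2c29, Cyp2c70, Cyp2d26 and Cyp2j5 were near absent, with 0, 0, 2 and 0 counts. Conjugation and detoxification had 17 of 33 readable members expressed, or 51.5%, near the 44.0% of all readable genes. Aldh1a1, which oxidises retinal and other aldehydes, was at 1218, 1159 and 1148, above 99.6% of expressed genes. Gstm1, a glutathione transferase, was at 329, 360.02 and 369, a lower bound, and Ugdh, which makes UDP-glucuronate, at 323, 308 and 309.6. Aldh2, the mitochondrial aldehyde dehydrogenase, was at 85.2, 95.5 and 88.5. Near absent were Ugt1a1, the bilirubin glucuronosyltransferase, Ugt2a3, Sult1d1 and Adh4, with 0, 0, 0 and 1 counts, so that the sugar donor's enzyme was high while the bilirubin transferase that uses it was not detected.

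Iron handling had 7 of 12 readable members expressed. Fth1, ferritin heavy chain, was at 4613, 4861 and 4812, the 4th highest level read. Tfrc, the transferrin receptor, was at 83.4, 78.9 and 89.1, the iron exporter Slc40a1 at 51.2, 52.3 and 50.9 and the importer Slc11a2 at 23. Hamp, the iron hormone hepcidin, had no counts but was not resolved, so nothing is said of its absence. Hjv and Bmp6, which act upstream of hepcidin, were near absent with 1 and 3 counts. Tmprss6, a liver protease that limits hepcidin production, was expressed at 14.2, 19 and 19.4, lowest in library 1.

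The fetal liver and oncofetal list had 10 of 25 readable members expressed, or 40%, 4 low and 3 near absent. Afp has been described above. Lgals1, galectin-1, was highest at 2902, 3293 and 3178, and the progenitor transcription factor Sox4 was at 152, 152 and 151. Cd24a, a surface protein of progenitors and tumours, was at 52.9, 54.8 and 53.3. The oncofetal RNA-binding proteins Igf2bp3 and Igf2bp1 had mean levels of 44.9 ± 2.5 and 26.9 ± 1.17, and the hepatoma antigen Gpc3, a glypican, of 39 ± 4.62. Tert, the catalytic subunit of telomerase, was at 11.5, 10.3 and 11.9. H19, an imprinted RNA abundant in fetal liver, was near absent with 0, 3 and 0 counts, as were the imprinted gene Peg3 with 1 and Spink1 with 0. Igf2, Dlk1 and Meg3, further imprinted fetal genes, had no counts but were unresolved. Lin28b, a repressor of let-7 microRNAs, was low with 38, 28 and 32 counts. Of the 5 fetal hepatoblast markers, Afp and Gpc3 were expressed, H19 was near absent, and Igf2 and Dlk1 could not be resolved.

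Bile duct and progenitor genes had 7 of 11 readable members expressed, or 63.6%, and their median level when expressed was 70.1. Of the 5 bile duct markers checked, all 4 readable ones were expressed. Krt7 was at 66, 77 and 72.2 and Krt19 at 67.2, 68.9 and 74.3. Sox9 was at 59.98, 63.4 and 66.4, and the surface protein Epcam at 25.2, 26.4 and 24.4. Spp1, osteopontin, was unreadable. Cldn4, a tight junction claudin, was at 273, 299 and 285, above the level of albumin in libraries 1 and 2 and below it in library 3. Anxa3, an annexin, was at 371, 383 and 379.8, a lower bound. Albumin and alpha-fetoprotein transcripts therefore stood in the same libraries as those of the duct keratins, whose levels were between those of Afp and Gpc3. Whether single cells held both cannot be read from bulk RNA.

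Epithelial and mesenchymal genes were also found together. Krt18, the keratin of simple epithelia, was at 1293, 1387 and 1313, Cldn3, another claudin, at 298, 339.8 and 325, and Krt8, the partner of Krt18, at 186, 202 and 184, a lower bound. In all, 7 of 11 readable epithelial members were expressed and none was near absent. On the mesenchymal list 7 of 13 were expressed and 5 near absent. Fn1, fibronectin, was at 481, 423 and 427 and Vim, vimentin, at 191, 213 and 217, both lower bounds on 273 and 416 unique bases. The transcription factors Zeb1 and Snai1, repressors of epithelial genes, were at 20.3, 17.3 and 18.3 and 15.9, 18.1 and 18.2. Their relatives Snai2 and Twist1 and the collagens Col1a2 and Col3a1 were near absent with 0, 0, 4 and 0 counts. The epithelial cadherin gene Cdh1 had 9 counts over 1227 unique bases but was unresolved, and Cdh2, the neural cadherin, was at 2.01, a lower bound. Of the pluripotency factors, Klf4 was expressed at 47.6, 48.7 and 46.1, and Pou5f1 and Sox2 were near absent with 3 and 0 counts.

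Markers of other cells that liver or culture could hold were checked next. Endothelial, macrophage and lymphocyte lists had 0 of 8, 0 of 10 and 0 of 5 readable members expressed. Their summed counts were 0.183 to 0.211 CPM for the 9 endothelial genes, 1.92 to 2.41 CPM for the 12 macrophage genes and 0.137 to 0.256 CPM for the 8 lymphocyte genes. Among resolved markers Cdh5 had 1 count over the 3 libraries, Kdr 6, Stab2 8 and Clec4f 1, while C1qa, Cd3e and Ms4a1 had 0. Most macrophage counts were those of Lyz2, a lysozyme, which was low with 26, 49 and 47, and of the unresolved Cd68, with 59 in all. Cd79a, of B cells, was low with 14 counts in all, the most of the lymphocyte list. Pecam1 and Ptprc were unresolved and Adgre1 and Csf1r unreadable, so that their counts of 1, 0, 2 and 3 tell nothing of absence. The erythroid list had Epor, the erythropoietin receptor, expressed at 5.64, with 6 counts of Gata1 and 56 of Klf1, both erythroid transcription factors. The globin genes Hba-a1 and Hbb-bs, with 39 and 0 counts, were unresolved, and Alas2 was unreadable. Its 11 genes summed to 10.9 to 11.8 CPM.

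Stellate and mesothelial markers had more counts. The 10 stellate and fibroblast genes summed to 256.5 to 270.1 CPM, almost all of it from 3 genes. Dcn, the matrix proteoglycan decorin, had 169, 169.9 and 165 CPM in the 3 libraries, on a transcript with 181 unique bases, too few for a level. Des, the intermediate filament desmin, was at 15.6, 18.9 and 17, and Ngfr, a neurotrophin receptor, at 12.7, 13.6 and 13.9. Lrat and Lum, the other readable defining markers, were near absent with 2 and 3 counts, and Pdgfrb was unreadable with 0. Of 7 mesothelial genes, 3 were expressed, or 42.9%, near the 44.0% of all readable genes. The list summed to 67.5 to 87.2 CPM. Msln, mesothelin, was at 26.1, 35 and 33.4, lowest in library 1, the uroplakin Upk3b at 2.9, 3.3 and 2.98 and the mucin Muc16 at 0.0855, 0.0632 and 0.0866, a lower bound. Lrrn4 and Upk1b had 2 and 3 counts and Wt1 had 0, unresolved. Msln was higher than 63.7% of expressed genes, and the mean levels of Des, Ngfr and Upk3b were below the median of 19.4 for expressed genes. Each of the 2 lists thus had some expressed markers beside defining ones at or near 0. The part of other cells in these libraries was not tested.

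**Figure D3:**
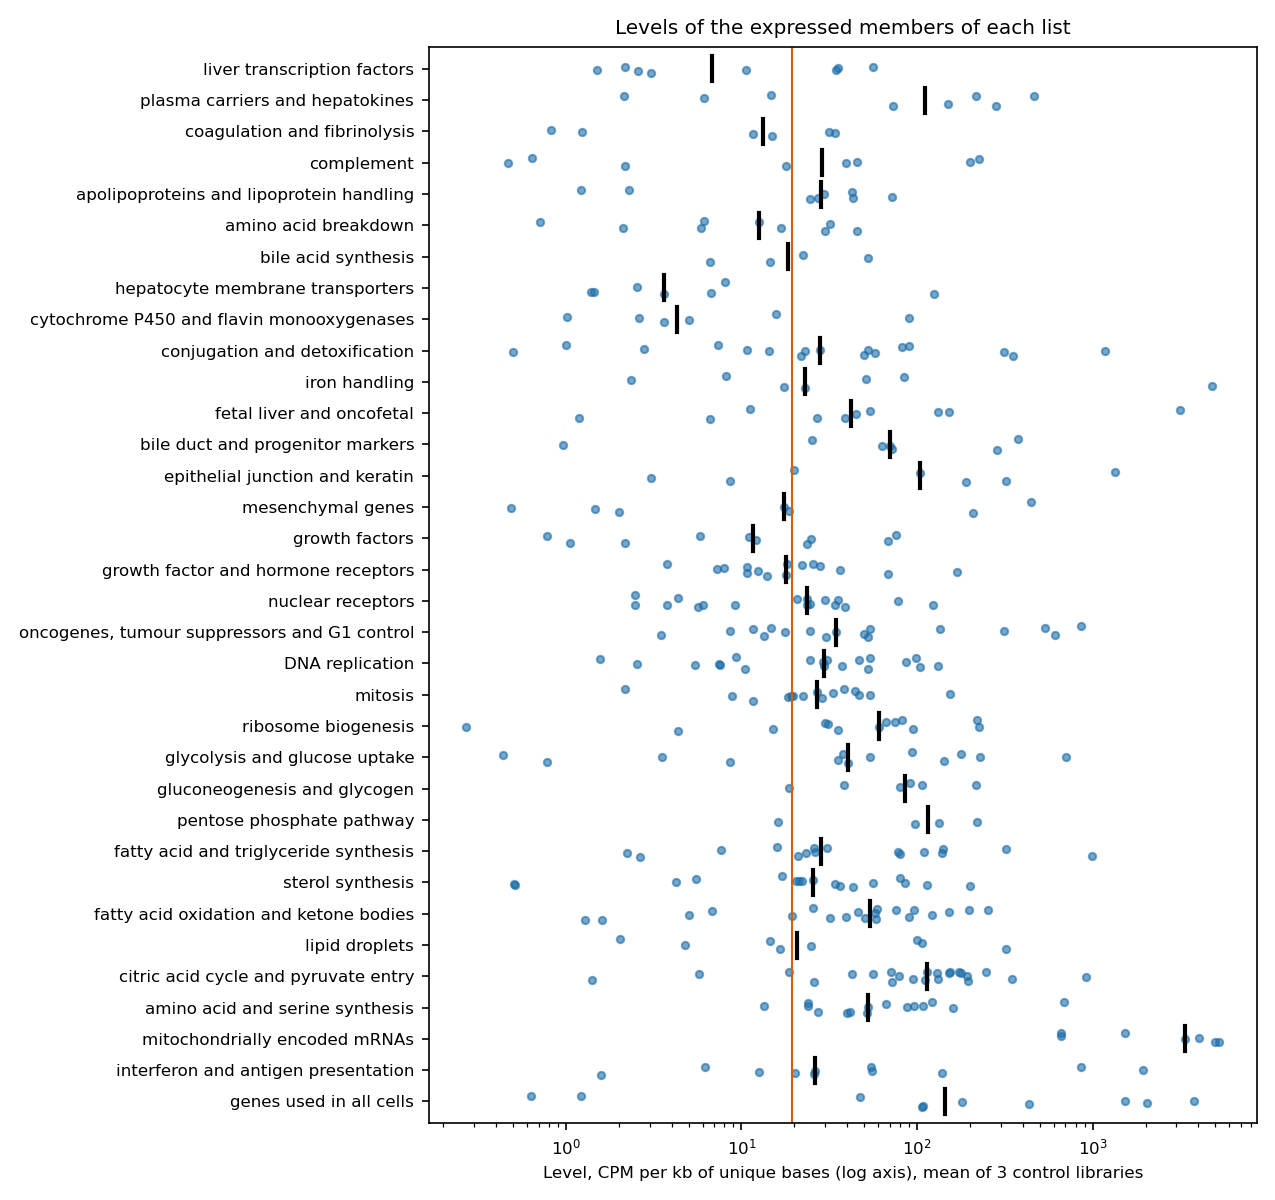
Mean level over the 3 control libraries, in CPM per kilobase of unique bases (log axis), of each expressed gene in lists with at least 4 such genes. Points are genes, black bars list medians and the vertical line the median of all expressed protein-coding genes, 19.4; the bar of the mitochondrially encoded mRNAs lies above 1000 and those of the liver transcription factors, membrane transporters and cytochrome P450 genes below 10.

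Genes of cell growth and division were mostly expressed. Of 20 DNA replication genes 19 were expressed and 1 was unresolved. Mcm3, a subunit of the replicative helicase, was at 129, 132 and 131, its partner Mcm2 at 96, 103 and 98.3, and Cdt1, which loads the helicase, at a mean of 86.7 ± 4.56. Mcm7, another subunit, had 104 ± 6.24, a lower bound. Of 16 readable mitosis genes 15 were expressed. Top2a, which untangles chromosomes, led at 163, 153 and 148, followed by the condensin subunit Ncapd2 at 54, Cdc20, an activator of the anaphase-promoting complex, at 46.8, and the centromeric histone Cenpa at 44.3. All 13 readable ribosome biogenesis genes were expressed, with a median level of 60.7. The nucleolar proteins Npm1 and Ncl were at 226 and 220.5, Nolc1 at 94.3 and Bop1 at 82. The levels of Cenpa and Npm1 are lower bounds.

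Of 22 readable oncogenes, tumour suppressors and regulators of the G1 phase, 17 were expressed and the other 5 unresolved. Cdk4, the kinase partner of D-type cyclins, was at 832, 875 and 864, a lower bound, and Ccnd1, cyclin D1, at 597, 616 and 612. Cdkn1a, the inhibitor p21, was at 522, 544 and 534, also a lower bound, so the cyclin, its kinase and an inhibitor of such kinases were all above the 99th percentile. Axin2, a feedback target of Wnt signalling, was at 315, 302 and 319.5, a lower bound. Also expressed were the Wnt-related receptor Lgr5 at 50.002 ± 1.79, a lower bound, and, on the list of amino acid synthesis, Glul, glutamine synthetase, at 679.97, 703 and 682. The Cdk4 inhibitors Cdkn2b and Cdkn2a, neighbours on chromosome 4, were at 134 ± 1 and 14.7 ± 1.27. Myc, Trp53 and Mdm2 were unreadable, and Ctnnb1, beta-catenin, was unresolved.

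Ligands and receptors of the epidermal growth factor family were read on both sides. Hbegf and Tgfa, ligands of the receptor Egfr, had the highest levels read among 10 expressed growth factors, at 74, 77.6 and 76.9 and 68.9, 69.5 and 65.8. Egfr itself was at 7.41, 7.16 and 7.07, below its relatives Erbb2 at 36.1, 37 and 36.4 and Erbb3 at 19.4, 17.8 and 17.1. Pdgfb and Pdgfa, platelet-derived growth factor chains, were at 25 and 23.5, the latter a lower bound. Ereg, Inhbc and Inhbe were near absent with 0, 2 and 9 counts, the last 2 being activin chains made mainly by liver.

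Of 23 readable receptors, 15 were expressed. Adipor2, an adiponectin receptor, was at 173, 164 and 168, Lifr, the receptor of leukaemia inhibitory factor, at 75.2, 64.3 and 64.8, a lower bound, and the insulin receptor gene Insr at 30.9, 26 and 27. Met, the receptor of hepatocyte growth factor, and Fgfr4, a receptor of hormone-like fibroblast growth factors, were at 25.5, a lower bound, and 22.1. Gcgr, the glucagon receptor, was near absent with 2, 2 and 1 counts. Igf1r was low with 6, 3 and 5 counts over 11409 unique bases, beside Insr and Igf2r at 27.9 and 10.7. Klb, the co-receptor of Fgfr4, was also low with 17, 9 and 10 counts. Of 25 readable nuclear receptors and related factors 17 were expressed, led by Ahr and followed by Nr2f6 at 78.4, the energy-metabolism receptor Esrra at 39 and the fatty acid receptor Ppard at 35.6. The xenobiotic receptor Nr1i2 was low with 17 counts, and its relatives Nr1i3 and Ppara were unresolved.

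Glycolysis and glucose uptake was the list least open to these counts, with 8 of 32 members unreadable and 10 unresolved. Of 24 readable members 13 were expressed. Tpi1, triose phosphate isomerase, was at 708, 689 and 716, Gpi1, the first isomerase of glycolysis, at 217, 234 and 230.5, the muscle-type pyruvate kinase Pkm at 175, 175 and 184 and the liver-type phosphofructokinase Pfkl at 135, 143 and 147. Tpi1 and Pkm are lower bounds. Gapdh had 6 counts and Ldha 1, on at most 222 and 49 unique bases of any coding transcript, and neither has a level that can be used.

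Gluconeogenesis and glycogen genes split by enzyme. G6pc, Fbp1, Fbp2 and Pck1, enzymes that lead from pyruvate to free glucose, had no counts in any library, over 2414, 1479, 1354 and 2661 unique bases. Pck2, the mitochondrial phosphoenolpyruvate carboxykinase, was at 87.6, 95 and 90.3. Pygb, the brain-type glycogen phosphorylase, was at 212, 218 and 218, Ppp1r3c, which targets phosphatase to glycogen, at 77.7, 78.8 and 84.4, and Ugp2, which makes UDP-glucose, at 101, 111 and 108, a lower bound. The liver-type glycogen enzymes Gys2 and Pygl had 2 and 0 counts. In all 6 of 19 readable members were expressed and 7 of 11 resolved ones near absent. The pentose phosphate pathway had all 4 resolved members expressed, with the transketolase gene Tkt at 217, 225 and 220.4, Pgd at 133, G6pdx at 96.9 and Rpia at 16.1.

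Lists of 26 pairs of isozymes or related proteins set a member typical of adult liver against another member. The pairs were chosen with earlier results of these data known. Where both members were resolved, which held for 8 pairs, the other member was higher in 6 and the adult liver member in 2. Slc2a1, the widespread glucose transporter, was at 90.8, 89 and 99.6, while Slc2a2, the hepatocyte transporter, had 0, 3 and 3 counts over 5569 unique bases. Pck2 was at least 2285-fold higher than Pck1, and Pygb at least 1057-fold higher than Pygl, each set against a floor of 3 counts per library since the liver form had none. Other pairs held both members. The log2 ratio of the alanine transaminase Gpt2 to Gpt was 1.74 ± 0.12. Scd2 was above Scd1 by 1.62 ± 0.02, both being stearoyl-CoA desaturases. Both ratios were many times their SD, which measures repeatability between libraries and not the error of comparing 2 genes. Computed per base of the whole transcript, 6 pair ratios moved by their SD or more and 5 by less. The 2 resolved pairs in the other direction were Alb over Afp and Cpt1a over Cpt1b, the liver and muscle carnitine palmitoyltransferases, with a log2 ratio of Cpt1b to Cpt1a of -5.17 ± 0.06.

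In the next pairs the higher member was not resolved, so its level and the ratio are lower bounds in the sense given above. Mat2a, the methionine adenosyltransferase of growing cells, stood above the adult liver form Mat1a by a log2 ratio of 4.25 ± 0.53, with Mat1a at 0.695, 0.898 and 0.546. Soat1 stood above Soat2, which both esterify cholesterol, by 0.89 ± 0.26. Gys1, the muscle-type glycogen synthase, was at 38.2, against 2 counts of the liver-type Gys2. The hexokinases Hk2 and Hk1, both widespread forms, were at 40.6 and 3.53, both lower bounds. The pairs G6pc with G6pc3, Bcat2 with Bcat1, Acacb with Acaca and Igf1 with Igf2 had 0 to 25 counts for every member, and no direction was read. None was read either for Pfkl and Pfkp or Cdh1 and Cdh2, as the member with the lower level was unresolved. Pairs in which no level could be set for 1 member included Eno3 and Eno1, Pklr and Pkm, and Plin5 and Plin2.

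**Figure D4:**
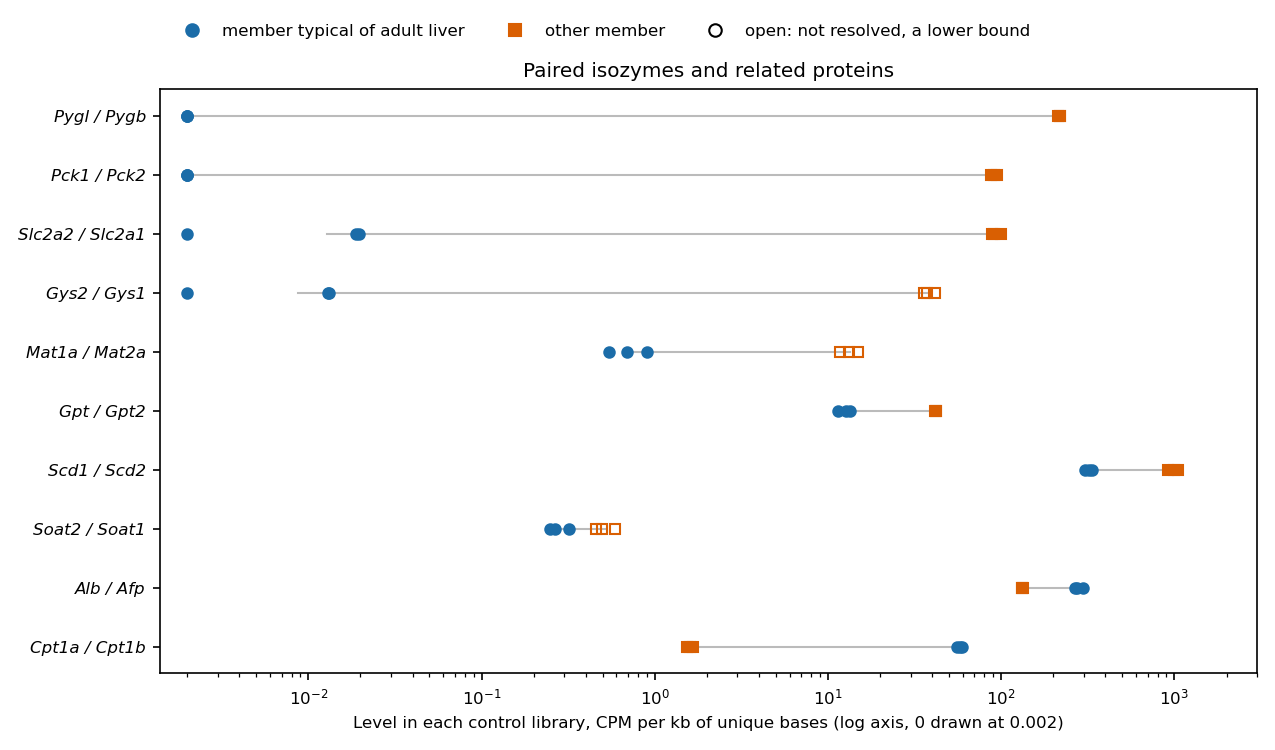
Level in each of the 3 control libraries, in CPM per kilobase of unique bases (log axis, 0 drawn at 0.002), of both members of 10 pairs with at least 1 expressed member and a resolved lower member. Circles mark the member typical of adult liver, squares the other and open symbols genes that are not resolved; squares lie to the right except in the pairs Alb and Afp and Cpt1a and Cpt1b.

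Lipid synthesis was broadly expressed. Of 23 readable fatty acid and triglyceride genes 17 were expressed and 1 near absent. Scd2 was at 1045, 923 and 989 and Scd1 at 335, 306 and 321, the former the 36th highest level read. Slc25a1, which exports citrate for fatty acid synthesis, was at 136, 143 and 144, the desaturase Fads1 at 140.5, 135 and 138 and the regulator Srebf1 at 109. Fasn, fatty acid synthase, was read at 2.65 on 1717 unique bases, a lower bound. Thrsp, a lipogenic protein of liver and fat, was near absent with 0, 2 and 1 counts. Of 20 readable sterol genes 17 were expressed and none near absent. The regulator Srebf2 was at 117, 111 and 112, and the demethylase Cyp51 and the oxidase Msmo1 at 85.2 and 79.8.

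Fatty acid oxidation and ketone bodies had 20 of 23 readable members expressed. Hadh, Acadl and Acads, enzymes of the mitochondrial beta-oxidation spiral, were at 253, 257 and 251, at 195, 198 and 196 and at 148, 156 and 150.1. Oxct1, which lets tissues burn ketone bodies and which adult hepatocytes are known to lack, was at 126, 123 and 118, a lower bound. Fabp1, the liver fatty acid carrier, had no counts over 553 unique bases. On the lipid droplet list 8 of 13 were expressed, led by the coat proteins Plin2 at 302, 344 and 315 and Plin3 at 107, then Hilpda and Fitm2 at 99.99, a lower bound, and 24.9. The droplet fusion proteins Cidea and Cideb and the droplet factor Fitm1 were near absent with 3, 5 and 4 counts.

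The citric acid cycle had 23 of 24 readable members expressed at a median level of 115. Mdh2, mitochondrial malate dehydrogenase, was at 889, 943 and 915, Cs, citrate synthase, at 348, 349 and 349, and the cytosolic Mdh1 and mitochondrial Idh2 at 246 and 196, the latter a lower bound. Cs varied little between the libraries, with a mean and SD of 349 ± 0.738. Pdk3, a kinase that restrains pyruvate entry, was near absent with 1 count, while Pdk4 was at 94.7. Amino acid and serine synthesis had 15 of 17 readable members expressed and none near absent. After Glul came Shmt2, of serine and glycine conversion, at 152, 173 and 153, Psat1, of serine synthesis, at 121, 117 and 128, and the transaminase Got1 at 108.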

How the data were processed

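The files deposited by the authors hold whole-number counts of reads, not normalised, for 58611 Ensembl transcripts in each library. Trim Galore, TopHat and HTSeq and the builds mm9 and GRCm38 are named, without versions or roles, per the submitters' processing notes. For alignment and counting, settings are not given in the sources used here.

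In all, 58264 transcripts matched GENCODE M21 (GRCm38), 53484 with the same version. The 347 others took up to 0.0462% of the counts in a library. Counts were summed per gene and divided by the library total (CPM). The 9603 rows with no unique base held 0.0236% of counts, and unique bases were found by ignoring strand. The main transcript held over 90% of the counts in 94.2% of expressed genes. At this depth 1 CPM is 27.4 to 29.2 counts. Python 3.11.15, pandas 2.3.3 and numpy 2.4.6 were used, and edgeR 4.0.16 in R 4.3.3 gave TMM factors as an alternative. The calculation of levels was checked on simulated data. No test between groups was made, since only 1 group was used. The Crebl2 siRNA libraries were not analysed here.

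The 44 lists, with 823 genes, and the 26 pairs were chosen with earlier results of these data known. Named genes are the 4 of highest level and up to 4 near absent ones per list, all pairs, the markers of cell types and the 20 readable genes of highest level. Some genes that this rule selects are not reported here. Others named, and the genes of the plot of liver genes by library, were picked after their values were seen. The requirement that a gene be resolved was also added after seeing the data. Alternatives were each library left out, TMM scaling, other CPM and unique-base minimums, summed rows and whole-transcript length.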

Additional observations from a re-analysis of the deposited data

How the results depend on the processing

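Counts of expressed genes kept within 1.5 times their value under the alternatives listed in the processing section, for all genes and for each of the 5 programmes, except that growth genes fell outside it among resolved genes only. Median levels over all readable members moved more. Leaving out each library in turn gave 0.181 to 0.195 for hepatocyte genes (0.211 with all 3 libraries), 0.945 to 1.04 for fetal, bile duct and related genes (1.02), 0 to 0.00818 for other cell types (0.00644), and 25.95 to 26.7 for metabolic genes (26.1); the median for other cell types was 0 without library 3. With a minimum of 500 unique bases the medians were 0.179 (hepatocyte), 1.08 (fetal), 19.5 (growth, 16.4 otherwise) and 38.7 (metabolic). With rows summed they were 0.172 (hepatocyte), 14 (growth) and 25.7 (metabolic). Per base of the whole transcript they were 0.107, 0.468, 8.9 and 19.96. Among resolved genes only, an alternative chosen after seeing the data, they were 0.316, 1.47, 25.97 and 65.3, with 68 growth members expressed in place of 106 as fewer genes were counted. The other member was higher in 6 of 8 resolved pairs; the 16 counted in all 20 pairs with a level include pairs whose direction these counts cannot give. The order of the programmes was the same under these settings. Of 387 expressed members with a level, 387 stayed within 1.5-fold with any library left out, 369 with rows summed and 273 per whole transcript, so levels on few unique bases are the least firm. No paired analysis was possible because only 1 group was used and no result comes from a test. Depth limits the low genes, as a level below 3 counts per library cannot be told from 0.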

Other observations

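Some genes outside the liver programmes had levels as high as the leading secreted proteins of the hepatocyte lists. The following 4 were picked from the 40 genes of highest level after their values were seen. Sprr1a, a precursor of the cornified envelope of squamous epithelia, was at 1547, 1711 and 1775 in libraries 1, 2 and 3. Thbs1, the matrix glycoprotein thrombospondin-1, was at 1545, 1507 and 1536, and Cpe, a carboxypeptidase that trims prohormones, at 1269, 1281 and 1307. Bcam, a laminin-binding adhesion molecule, was at 926, 982 and 981. All 4 are resolved genes with mean levels above that of Lbp, which had the highest level read for a secreted protein of the hepatocyte lists, although Bcam lay below it in library 1.

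Antigen presentation and innate sensing genes were expressed in 12 of 18 readable members. B2m and H2-D1, both chains of an MHC class I molecule, were at 1901, 1984 and 1913 and 825, 894 and 857. The interferon gamma receptor chain Ifngr1 and the RNA sensor Ddx58 were at 139 and 55.3. Tlr2 and Tlr4, receptors of bacterial lipids and of the lipopolysaccharide that Lbp carries, were at 26.3 and 26. Among sex chromosome genes Xist, the RNA of the inactive X chromosome, was at 38.6, 28.7 and 33.7, and the Y-linked Ddx3y, Kdm5d and Eif2s3y had no counts.

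Mitochondrially encoded mRNAs fell into a high set and a set almost without counts. The 7 expressed ones ran from mt-Nd5 at 659 to mt-Nd1 at 5264. By contrast mt-Co2, mt-Co3, mt-Atp6, mt-Nd3 and mt-Nd4l had 44, 60, 79, 3 and 2 counts. Between 97.1% and 100% of the 50-base words of these 5 recur in another annotated gene, so their counts give no level. Among members with over 900 counts, the largest spread between libraries was that of Tmprss6, with 1318, 1726 and 1696 counts and a coefficient of variation of 16.6%. The next 9 had coefficients from 12.3% to 15%. Of these Mki67, Xist, Braf, Abca1 and Lrp1 were highest in library 1, and Msln, Mlxipl, Cth and Cldn2 in library 2.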
